A study of Mus musculus with 82 samples.

Results

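Messenger RNA of 39 genes for copying and repairing DNA was compared across 13 mouse mammary tumour models, with Brca1 and its recombination partners kept apart from the Mcm genes. The genes came from a list of names. All 39 were among the 47480 genes of the count table, and all 39 passed the filter on low counts, as 22847 genes did. They are 21 replication genes (6 of the MCM helicase, 3 for origin licensing, 3 for helicase activation, 7 for polymerases, clamp and clamp loader, and 2 for ribonucleotide reductase) and 18 repair genes (7 for homologous recombination and the Fanconi anaemia pathway, 5 checkpoint genes, and 6 for end joining, single-strand break and mismatch repair).

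The 82 untreated tumours gave 1 library of bulk RNA each. BALB/c mice carried 9 models with 64 libraries: 2208 (n = 12), 2250 (n = 11), 2225 (n = 10), 2153 (n = 7), 9263 (n = 7), 2336 (n = 5), 4T1 (n = 5), 2224 (n = 4) and T12 (n = 3). FVB mice carried MMTV-NEU (n = 8), MMTV-PYMT (n = 5) and KPB1-A (n = 2), and C57BL/6 mice carried E0771 (n = 3). Each model was on 1 strain, so strain and model cannot be told apart. MMTV is the mouse mammary tumour virus, whose promoter is used to drive transgenes in mammary epithelium, but the labels give no genotype. Whether a model carries a change in Brca1 or another member is therefore not given in the sources used here, and a count per gene need not show the loss of part of a gene. The p-values measure the spread between these libraries, which may in part be technical. In bulk tumour RNA, fewer cells of a type and less RNA per cell cannot be told apart.

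Total counts ran from 14.4 M to 132.7 M per library, with a median of 58.2 M. Of 7 epithelial markers, 5 averaged under 1 CPM (a gene's count scaled to the library's total) in E0771 (Epcam, Krt18, Krt7, Cldn3 and Cldn7) and 4 did in T12 (Epcam, Krt7, Cldn3 and Cldn7). The list summed to 363 to 398 CPM in E0771 and 234 to 338 CPM in T12, and to 713 to 7453 CPM in the libraries of the other models. Macrophage markers summed to 1592 to 3175 CPM in E0771, 2670 to 3269 CPM in T12 and 1413 to 2510 CPM in 4T1. In the libraries of the other models they summed to 35.0 to 1427 CPM, and within 9263 to 807, 1086 and 1427 CPM in replicates 2, 3 and 4 against 35.0 to 127 CPM in the other 4. The part of these cells in the results was not tested. Levels below are CPM after TMM scaling, a correction for library composition, as mean ± SD over libraries. A difference is a model's mean set against the average of the means of the other 12 models, each with equal weight, in log2 units ± SE. Libraries counted as above or below the other models are above or below this average in log2 CPM, and may overlap single models. A gene is called higher or lower at an adjusted p under 0.05, from edgeR's quasi-likelihood test with Benjamini-Hochberg adjustment over all genes.

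DNA is copied once per cell cycle. In G1 the origin recognition complex, Cdc6 and Cdt1 load the ring of Mcm proteins onto DNA, and in S phase Cdc45 and the GINS complex turn the ring into a moving helicase that the polymerases follow. Many of these genes are switched on by E2F factors as cells leave G1. Brca1, with its partner Bard1, prepares broken DNA for homologous recombination, in which Palb2 and Brca2 act after it. Cells use this route mainly in S and G2, whereas end joining by Ku (Xrcc5 and Xrcc6) and Prkdc works throughout the cycle.

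Promoter sequences are shown because windows of several Mcm genes hold short E2F-type words and that of Brca1 does not. RefSeq windows on GRCm38.p6, 300 bases long (250 before to 50 after the start), matched 33 of the 39 members with 35 windows. The words TTTCCCGC, TTTGGCGC, TTTCGCGC and TTTGCCGC were searched on both strands. They can overlap, as TTTCGCGC and the reverse of TTTGGCGC do in Mcm5, and TTTGGCGC and the reverse of TTTCGCGC in Mcm6. At least 1 word was in 15 of 35 member windows (42.9%), in 10 of 18 of replication genes (55.6%) and in 5 of 17 of repair genes (29.4%), against 2.3% of all 32851 windows. The share was 61.5% of 13 windows of G1/S regulators and 5.6% of 18 windows of mitosis genes. The CCAAT box, searched the same way, was in 68.6% of member windows, 88.9% of mitosis windows and 37.4% of all windows. Mcm3, Mcm5, Mcm6 and Mcm7 had words in a window, Mcm2 did not, and Mcm4 had no window. The windows of the replication genes Pcna, Cdc45, Rrm1, Rrm2, Rfc1 and Rfc4 held none either. Near matches were not counted. Bard1 and Brca2 had 1 each, and the windows of Brca1, Palb2, Rad54l and Fanca did not hold these letters. The windows below run 5′ to 3′ along the gene, with E2F-type words in capitals: 3 Mcm genes, the clamp loader gene Rfc3 with its words at the start site, Bard1, and Brca1 for contrast.
Mcm5 (chr8:75109259-75109558, + strand): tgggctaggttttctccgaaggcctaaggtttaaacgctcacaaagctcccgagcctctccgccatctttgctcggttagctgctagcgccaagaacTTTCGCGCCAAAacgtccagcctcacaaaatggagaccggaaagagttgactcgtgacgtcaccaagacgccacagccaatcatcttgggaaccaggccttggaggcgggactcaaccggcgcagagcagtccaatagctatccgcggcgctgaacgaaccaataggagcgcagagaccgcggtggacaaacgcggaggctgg
Mcm6 (chr1:128359656-128359955, - strand): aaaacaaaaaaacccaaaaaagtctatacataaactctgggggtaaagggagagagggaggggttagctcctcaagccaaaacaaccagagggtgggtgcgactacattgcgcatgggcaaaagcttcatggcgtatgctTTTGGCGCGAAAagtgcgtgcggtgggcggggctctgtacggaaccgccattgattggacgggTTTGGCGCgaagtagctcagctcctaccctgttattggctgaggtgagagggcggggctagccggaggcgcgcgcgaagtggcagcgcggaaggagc
Mcm7 (chr5:138171834-138172133, - strand): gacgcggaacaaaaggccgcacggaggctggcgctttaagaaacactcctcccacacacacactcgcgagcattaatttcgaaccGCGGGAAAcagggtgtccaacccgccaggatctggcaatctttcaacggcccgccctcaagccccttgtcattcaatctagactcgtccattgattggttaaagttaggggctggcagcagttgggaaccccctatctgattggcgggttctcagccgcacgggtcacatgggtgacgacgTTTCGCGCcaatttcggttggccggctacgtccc
Rfc3 (chr5:151651159-151651458, - strand): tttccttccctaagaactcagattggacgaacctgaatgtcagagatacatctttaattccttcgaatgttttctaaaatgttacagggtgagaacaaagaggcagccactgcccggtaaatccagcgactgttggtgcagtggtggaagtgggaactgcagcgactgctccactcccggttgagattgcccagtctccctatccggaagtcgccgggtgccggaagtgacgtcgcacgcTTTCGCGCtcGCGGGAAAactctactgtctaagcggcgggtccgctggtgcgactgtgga
Bard1 (chr1:71102923-71103222, - strand): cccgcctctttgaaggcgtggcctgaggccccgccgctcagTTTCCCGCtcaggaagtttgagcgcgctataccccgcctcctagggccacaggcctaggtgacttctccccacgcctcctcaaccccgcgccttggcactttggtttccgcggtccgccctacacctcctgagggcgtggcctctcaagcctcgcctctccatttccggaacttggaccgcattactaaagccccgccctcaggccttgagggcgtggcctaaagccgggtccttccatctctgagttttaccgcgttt
Brca1 (chr11:101551906-101552205, - strand): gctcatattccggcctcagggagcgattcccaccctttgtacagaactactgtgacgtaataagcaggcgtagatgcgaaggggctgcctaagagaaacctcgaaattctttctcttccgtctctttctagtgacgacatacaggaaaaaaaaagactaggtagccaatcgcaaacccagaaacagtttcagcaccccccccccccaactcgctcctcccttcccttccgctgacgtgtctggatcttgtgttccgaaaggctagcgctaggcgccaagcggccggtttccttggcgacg
A match describes the letters, not a bound site.

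Across the 13 models, 39 of 39 members differed by the F test, as did 98.2% of all genes, so that this count is no result about the members. In some single models the members leaned higher or lower more than all genes did. In 2153, 24 members were higher and 4 lower, where 29.4% of all genes were higher and 23.6% lower. In 9263, 22 were higher and 1 lower (32.5% and 21.9% of all genes). In KPB1-A, 19 were higher (24.9% of all genes) and 0 lower (14.4%), and 22 had an unadjusted p under 0.05. At the other end, MMTV-NEU had 4 higher and 29 lower (34% and 28.4%), 4T1 3 and 26 (25.5% and 23.6%), MMTV-PYMT 1 and 24 (31% and 20.5%) and 2208 4 and 20 (29.4% and 24.7%). Between them stood 2250 with 18 and 10 (32.1% and 27.7%), 2336 with 13 and 5 (30.2% and 25.4%), 2225 with 11 and 7 (34.2% and 26.8%) and E0771 with 11 and 4 (29.4% and 26.9%). Last came T12 with 5 and 8 (24.4% and 23.8%) and 2224 with 4 and 10 (24% and 14.8%). Calls of at least 1 log2 unit were rarer among the members than among all genes in each model but KPB1-A. They were 9 of 39 members in KPB1-A, the most of any model, and 23.1% of all genes there. They were 8 in MMTV-NEU (32.3% of all genes), 4 in E0771 (37.4%), 3 in 2153 (23%), 1 in 2224 (18.7%) and 0 in 2208 and 2336 (19.4% and 29.9%).

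Of the 21 replication genes, 17 were higher and 0 lower in 2153, and 0 were higher and 19 lower in MMTV-NEU, against 7 and 4, and 4 and 10, of the 18 repair genes. In 2208 the counts were 3 higher and 10 lower for replication and 1 and 10 for repair, in 4T1 2 and 16 against 1 and 10, and in KPB1-A 11 and 0 against 8 and 0. The difference between the groups was not tested. The median log2 difference of the 39 members was 0.45 in KPB1-A, 0.42 in 2153, 0.32 in 9263, -0.52 in 4T1, -0.53 in MMTV-PYMT and -0.57 in MMTV-NEU, with medians over all genes of 0.06, -0.02, 0.05, -0.08, 0.04 and -0.02. The split depended on the scaling or reference in 3 models. In T12 it was 8 higher and 7 lower with DESeq2's size factors, 7 and 7 with upper-quartile factors, 8 and 8 in DESeq2, 5 and 5 without the filter and 8 and 4 in limma on the authors' normalized table. In 2224 limma gave 6 and 5, and in 2225 the other BALB/c models as reference gave 8 and 9. In KPB1-A, 30 were higher and 1 lower against the other FVB models, where 55.5% of the calls over all genes were higher. Those models, MMTV-NEU and MMTV-PYMT, had the lowest means over the replication genes of the 13 (5.01 and 5.13 log2 CPM). The count thus depends on a low reference. Fewer members were called higher without replicate 1 or without replicate 2, where the lone library is assumed to vary like the other groups.

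**Figure D1:**
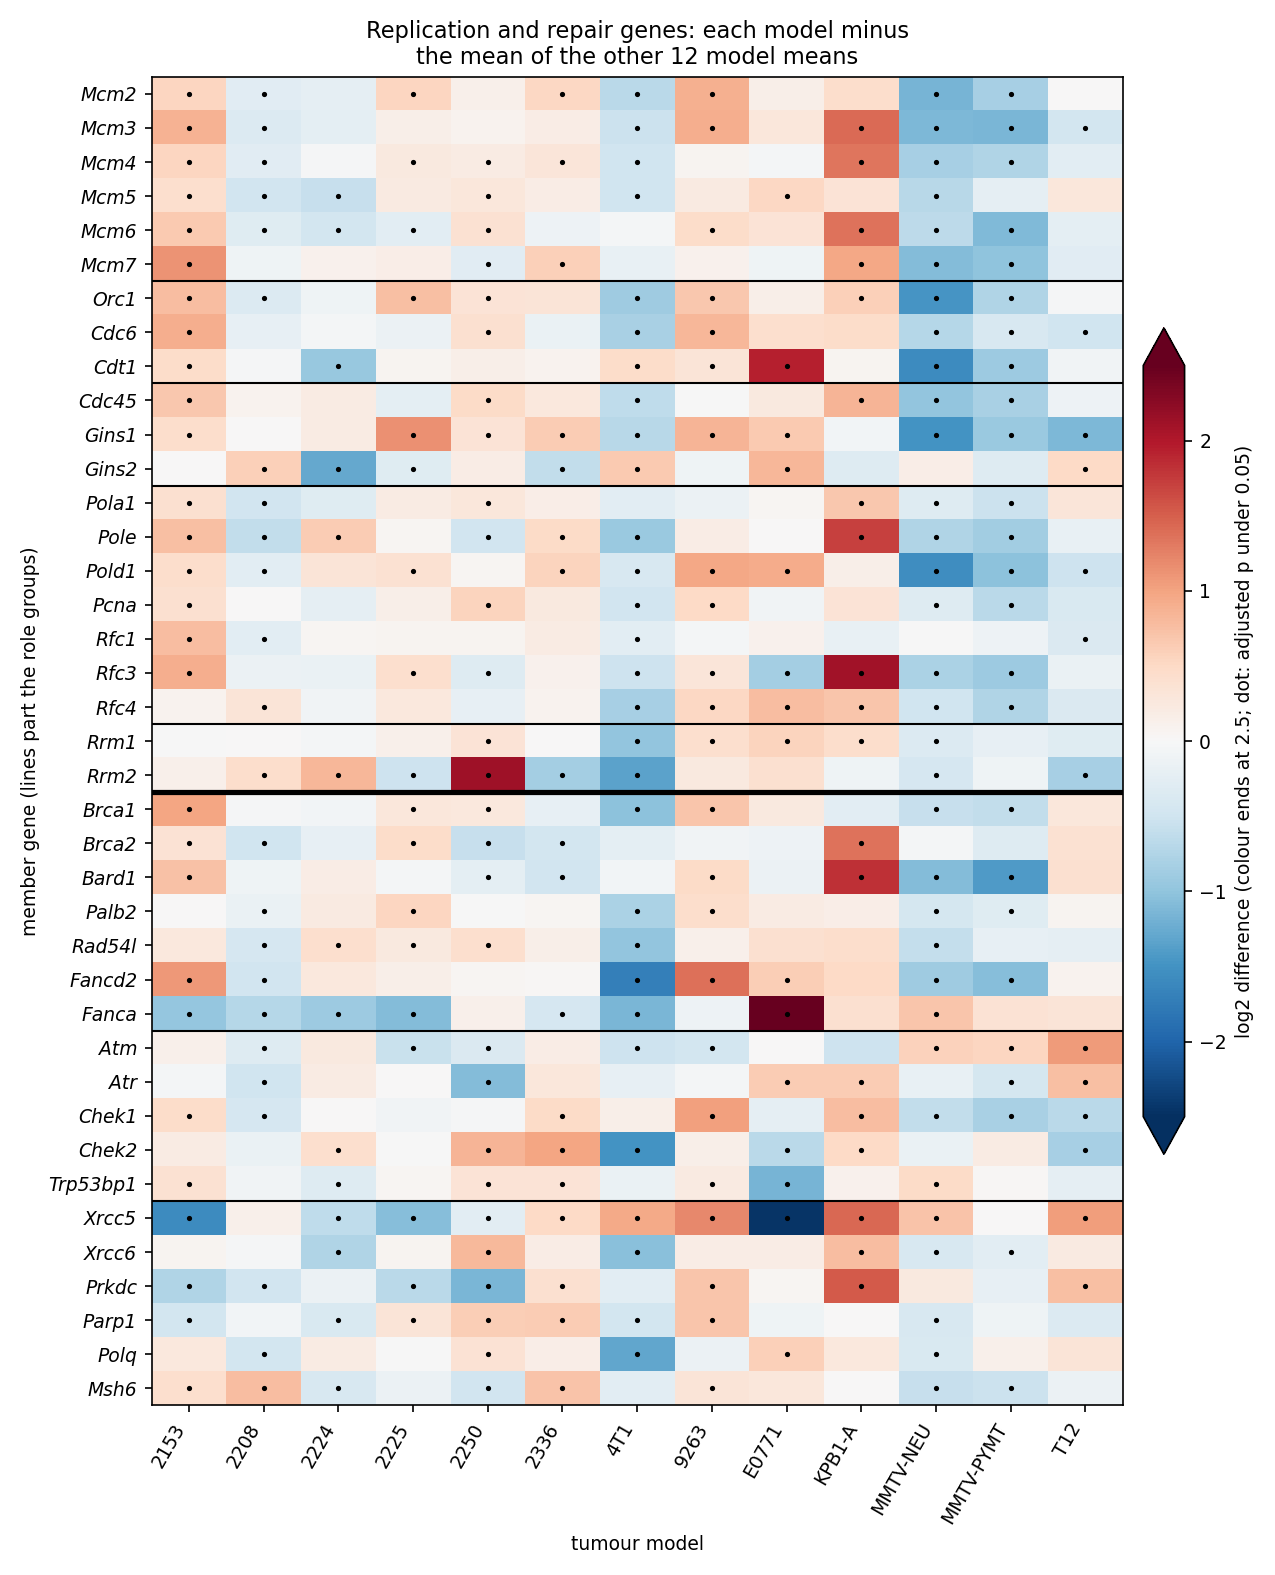
Log2 difference of each of the 39 members (vertical axis, by role, with a thick line before Brca1) in each model (horizontal axis) from the mean of the other 12 models; colour ends at 2.5, and a dot marks an adjusted p under 0.05. Replication genes share a direction within 2153 (17 higher, 0 lower) and MMTV-NEU (0 higher, 19 lower), while Fanca, Xrcc5, Rrm2 and Gins2 take orders of their own.

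The Mcm genes encode the 6 subunits of the ring helicase. All 6 were higher in 2153 and all 6 lower in MMTV-NEU, 4 were higher in KPB1-A, 5 were lower in MMTV-PYMT and in 2208, and 4 were lower in 4T1. Mcm7 (chr5:138164583-138172422) had 249.95 CPM at the lowest, 290.6 CPM at the median and 399.1 CPM at the highest in 2153. It had 312.8 and 252.5 CPM in KPB1-A and 59.3 CPM at the lowest, 66.3 CPM at the median and 122.6 CPM at the highest in MMTV-NEU. The libraries of 2153 overlapped those of KPB1-A and 2336 (189.0 to 255.5 CPM) and no others. The difference was 1.13 ± 0.087, adjusted p = 3.5e-19, and 7 of 7 libraries were above the average of the other models. Within 2153, all 6 Mcm genes were higher in replicates 5, 6 and 7 than in the other 4 libraries. For Mcm7 the values were 361.2, 399.1 and 383.3 CPM against at most 290.6 CPM, a split seen in the values and not tested. Ap4m1 and Cops6 overlap Mcm7, and the counting is not stated to use strand. Mcm6 (chr1:128331590-128359664) had 349.8 and 357.7 CPM in KPB1-A, above every library of another model (at most 256.7 CPM). Mcm4 (chr16:15623897-15637400) had 263.4 and 256.2 CPM there, also above every other library (at most 198.4 CPM). Their differences were 1.36 ± 0.17 and 1.34 ± 0.17.

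Mcm3 (chr1:20802968-20820312) had the widest range of the 6 subunits, 5.09-fold between the highest and lowest model. It had 248.0 and 350.6 CPM in KPB1-A and 71.9, 48.4, 71.9, 40.0 and 61.5 CPM in MMTV-PYMT (-1.14 ± 0.15, adjusted p = 1.38e-09, below the other models in 5 of 5 libraries). These groups did not overlap. Mcm2 (chr6:88883474-88898780) was highest in 9263 at 218.3 ± 37.3 CPM (n = 7) and lowest in MMTV-NEU at 59.0 ± 22.5 CPM (n = 8). Mcm5 (chr8:75109569-75128439) varied least, 2.17-fold, from 145.7, 167.3 and 162.5 CPM in E0771 to 73.1 ± 25.5 CPM in MMTV-NEU (n = 8). Mcm5 was the Mcm gene not called in MMTV-PYMT (-0.23), and Mcm6 and Mcm7 were not called in 4T1 (-0.06 and -0.19).

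The licensing genes load that ring. Orc1, the large subunit of the origin recognition complex, and Cdc6, its partner ATPase, were both higher in 2153, 2250 and 9263 and both lower in 4T1, MMTV-NEU and MMTV-PYMT. Orc1 was 15.9 ± 4.44 CPM in 2153 (n = 7) and 3.73 ± 1.13 CPM in MMTV-NEU (n = 8), and it was higher in 2225 (0.75 ± 0.11, adjusted p = 1.19e-08, above the other models in 10 of 10 libraries). Cdt1 (chr8:122568015-122573554), which brings the Mcm ring to the origin and is held in check by geminin, had 128.4, 158.2 and 166.8 CPM in the E0771 libraries. Every other library was at or below 75.5 CPM, and the difference was 1.94 ± 0.17, adjusted p = 2.37e-16, above the other models in 3 of 3 libraries. Gm20388 overlaps Cdt1 as well as Fanca. In MMTV-NEU Cdt1 had 7.21 CPM at the lowest, 13.96 CPM at the median and 28.2 CPM at the highest, with 6 of 8 libraries below every library of another model (-1.57 ± 0.16, adjusted p = 1.6e-14, below the other models in 8 of 8 libraries). In 2224 it had 18.0, 29.7, 23.2 and 24.1 CPM (-0.96 ± 0.20, adjusted p = 8.17e-05, below the other models in 4 of 4 libraries). In 4T1, where 16 of 21 replication genes were lower, Cdt1 was higher (58.5 ± 5.11 CPM, n = 5; 0.45 ± 0.16).

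Helicase activation split between 2 subunits of the GINS complex. Gins1 (chr2:150905400-150931280) was highest in 2225, with 17.4 CPM at the lowest, 25.6 CPM at the median and 37.9 CPM at the highest (1.13 ± 0.14, adjusted p = 1.4e-10, above the other models in 10 of 10 libraries). It was lower in T12, with 6.12, 5.24 and 8.01 CPM (-1.12 ± 0.30, adjusted p = 0.0013, below the other models in 3 of 3 libraries), below every library of 2225. Gins2 (chr8:120578633-120589304) took another order. It was higher in E0771 (0.83 ± 0.17), 4T1 (0.66 ± 0.14, adjusted p = 3.12e-05, above the other models in 5 of 5 libraries), 2208 (0.61 ± 0.10, adjusted p = 1.09e-07, above the other models in 11 of 12 libraries) and T12 (0.50 ± 0.18). In 2224 its libraries had 11.2, 13.7, 8.94 and 9.08 CPM (-1.29 ± 0.18, adjusted p = 1.41e-08, below the other models in 4 of 4 libraries), and it was lower in 2336 (-0.62 ± 0.16, adjusted p = 0.000468, below the other models in 5 of 5 libraries) and 2225. Over the 13 model means, Gins1 had a Pearson r of 0.70 with the mean of the Mcm genes and Gins2 one of -0.11. Gse1 and the predicted gene Gm20388 overlap Gins2. Cdc45, the helicase cofactor, had r = 0.88 and ran from 14.2 ± 4.49 CPM in MMTV-NEU (n = 8) to 45.9 ± 8.55 CPM in KPB1-A (n = 2).

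Of the 7 genes for polymerases, clamp and loader, 6 were higher in 2153, and 6 were lower in each of 4T1, MMTV-NEU and MMTV-PYMT. Rfc3 (chr5:151642756-151651242), a subunit of the loader that opens the Pcna clamp, spanned 6.88-fold. It had 155.7 and 127.7 CPM in KPB1-A against at most 81.0 CPM in any other library (2.11 ± 0.15, adjusted p = 3.03e-20, above the other models in 2 of 2 libraries). In E0771 Rfc3 was lower (15.8, 25.0 and 23.3 CPM; -0.85 ± 0.17) while its partner Rfc4 was higher (26.4, 30.0 and 29.2 CPM; 0.78 ± 0.22). Pole (chr5:110286306-110337474), the catalytic subunit of the leading-strand polymerase, had 179.3 and 132.5 CPM in KPB1-A, above the 109.4 CPM of the highest other library (1.70 ± 0.17). It was higher in 2224 (79.1, 90.8, 75.9 and 69.6 CPM; 0.63 ± 0.14, adjusted p = 0.000121, above the other models in 4 of 4 libraries) and lower in 2208 (22.8 CPM at the lowest, 36.1 CPM at the median and 46.2 CPM at the highest; -0.61 ± 0.10, adjusted p = 8.66e-08, below the other models in 12 of 12 libraries), and these groups did not overlap. Pold1, the catalytic subunit of the lagging-strand polymerase, was highest in 9263 (100.1 ± 24.4 CPM, n = 7) and E0771 (90.5, 98.7 and 104.6 CPM). In MMTV-NEU it had 12.3 CPM at the lowest, 18.5 CPM at the median and 30.3 CPM at the highest, with 5 of 8 libraries below every library of another model (-1.56 ± 0.13, adjusted p = 4.22e-17, below the other models in 8 of 8 libraries).

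Pcna, the sliding clamp, had the highest level per length of the 39 members at 71.4 CPM per kilobase of exon sequence, averaged over models. Mcm7 was next on this scale at 37.4, Brca1 stood at 4.46, and Prkdc was lowest at 1.3. Pcna spanned 2.21-fold, from 107.8 ± 22.2 CPM in MMTV-PYMT (n = 5) to 237.9 ± 38.9 CPM in 2250 (n = 11). Pola1, the polymerase subunit that extends the primers of new strands, and Rfc1, the large loader subunit, spanned 2.16-fold and 2.06-fold, among the narrowest ranges of the 39.

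Ribonucleotide reductase makes the deoxynucleotides for S phase. Its small subunit Rrm2 (chr12:24708241-24714146) had 240.4 CPM at the lowest, 331.0 CPM at the median and 442.8 CPM at the highest in 2250. All 11 libraries were above every library of another model (at most 192.1 CPM), with a difference of 2.11 ± 0.13, adjusted p = 1.65e-24, above the other models in 11 of 11 libraries. The large subunit Rrm1 was higher there by less (0.35 ± 0.083). Rrm2 was also higher in 2224 (179.1, 177.3, 111.4 and 112.1 CPM; 0.83 ± 0.21, adjusted p = 0.000951, above the other models in 4 of 4 libraries). It was lower in 2336 (54.6, 54.0, 60.2, 31.5 and 48.0 CPM; -0.84 ± 0.23, adjusted p = 0.00101, below the other models in 5 of 5 libraries), in T12 (49.2, 36.4 and 64.3 CPM; -0.83 ± 0.29, adjusted p = 0.0124, below the other models in 3 of 3 libraries) and in 4T1 (42.1, 29.2, 39.6, 36.7 and 33.9 CPM; -1.33 ± 0.24). The T12 call was lost without replicate 1 and without replicate 2. Both subunits were lowest in 4T1, Rrm1 at 83.4 ± 8.69 CPM (n = 5). Over the 13 models, Rrm1 had r = 0.64 with the Mcm mean and Rrm2 r = 0.19.

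Brca1 (chr11:101488764-101551955) spanned 3.63-fold. It was highest in 2153 (53.2 CPM at the lowest, 63.7 CPM at the median and 80.9 CPM at the highest) and 9263 (39.03 CPM at the lowest, 58.1 CPM at the median and 70.7 CPM at the highest). Then came 2225 (43.2 ± 7.06 CPM, n = 10), T12 (43.9, 35.5 and 49.5 CPM), 2250 (42.7 ± 10.1 CPM, n = 11), E0771 (38.5, 39.8 and 48.7 CPM) and 2208 (35.3 ± 8.08 CPM, n = 12). Lower in the order stood 2224 (39.8, 36.7, 30.9 and 29.8 CPM), 2336 (30.9, 29.1, 38.5, 22.7 and 37.3 CPM), KPB1-A (32.2 and 28.9 CPM), MMTV-NEU (13.5 CPM at the lowest, 24.1 CPM at the median and 36.1 CPM at the highest), MMTV-PYMT (25.9, 24.0, 27.7, 18.3 and 25.9 CPM) and 4T1 (19.9, 15.8, 19.4, 20.1 and 18.0 CPM). Each neighbouring pair in this order overlapped, so that the order between neighbours is not fixed by these libraries. The 4T1 libraries overlapped those of MMTV-PYMT, MMTV-NEU and 2208 and lay below those of the other 9 models. Brca1 was called higher in 2153 (0.99 ± 0.11), 9263 (0.69 ± 0.12), 2225 (0.29 ± 0.10) and 2250 (0.27 ± 0.10) and lower in 4T1 (-1.03 ± 0.16), MMTV-PYMT (-0.61 ± 0.15) and MMTV-NEU (-0.57 ± 0.12). Against models of the same strain alone, the calls in 2225, 2250, MMTV-NEU and MMTV-PYMT were lost. In KPB1-A, with 4 Mcm genes higher, Brca1 was not called (-0.26 ± 0.23).

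Its partners took other orders. Bard1 (chr1:71027498-71103146), which forms a ubiquitin ligase with Brca1, had 48.1 and 52.9 CPM in KPB1-A against at most 32.6 CPM in any other library (1.82 ± 0.18, adjusted p = 1.72e-13, above the other models in 2 of 2 libraries). It was lowest in MMTV-PYMT, with 8.3, 6.08, 7.23, 4.8 and 5.53 CPM (-1.41 ± 0.17, adjusted p = 4e-11, below the other models in 5 of 5 libraries). In 4T1, where Brca1 was lowest, Bard1 was not called (-0.07 ± 0.15). Brca2 (chr5:150522630-150570329), which acts downstream of Brca1 and Palb2, had 43.7 and 58.2 CPM in KPB1-A against at most 34.0 CPM elsewhere (1.35 ± 0.19). Palb2, the bridge between Brca1 and Brca2, spanned 2.34-fold, from 5.87 ± 0.906 CPM in 4T1 (n = 5) to 13.8 ± 1.47 CPM in 2225 (n = 10). Rad54l, a motor of strand exchange, was lower in 4T1 (-0.99 ± 0.16), MMTV-NEU and 2208. Fancd2 (chr6:113531682-113597017), which is ubiquitinated at DNA crosslinks, spanned 7.14-fold. It had 26.9 CPM at the lowest, 40.1 CPM at the median and 54.8 CPM at the highest in 9263 (1.37 ± 0.11, adjusted p = 6.99e-18, above the other models in 7 of 7 libraries) and 27.0 CPM at the lowest, 35.3 CPM at the median and 37.4 CPM at the highest in 2153 (1.08 ± 0.12, adjusted p = 6.24e-13, above the other models in 7 of 7 libraries). In 4T1 it had 6.67, 5.11, 5.66, 5.84 and 4.94 CPM (-1.70 ± 0.17, adjusted p = 1.02e-13, below the other models in 5 of 5 libraries), overlapping only MMTV-PYMT, MMTV-NEU and 2208, the models that Brca1 in 4T1 also overlapped. Fancd2os overlaps Fancd2.

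Fanca (chr8:123268300-123318576), a subunit of the Fanconi core complex, had the widest range of the 39 members, 19.0-fold. The E0771 libraries had 185.9, 134.6 and 166.1 CPM, and no other library exceeded 40.0 CPM. The difference was 3.47 ± 0.15, adjusted p = 4.05e-32, above the other models in 3 of 3 libraries. It was also higher in MMTV-NEU (15.3 CPM at the lowest, 26.5 CPM at the median and 40.0 CPM at the highest; 0.69 ± 0.13, adjusted p = 6.41e-06, above the other models in 7 of 8 libraries), a call lost against the other FVB models. It was lower in 2225 (-1.09 ± 0.14, adjusted p = 3.36e-10, below the other models in 10 of 10 libraries), 2153 (-0.96 ± 0.16, adjusted p = 6.54e-07, below the other models in 7 of 7 libraries), 2208 (-0.72 ± 0.13, adjusted p = 1.29e-06, below the other models in 12 of 12 libraries), 4T1, 2224 and 2336, all measured against a reference that holds E0771. The call in 2208 was lost against the other BALB/c models. Zfp276 and Gm20388 overlap Fanca and had differences of 0.71 and 1.26 in E0771.

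**Figure D2:**
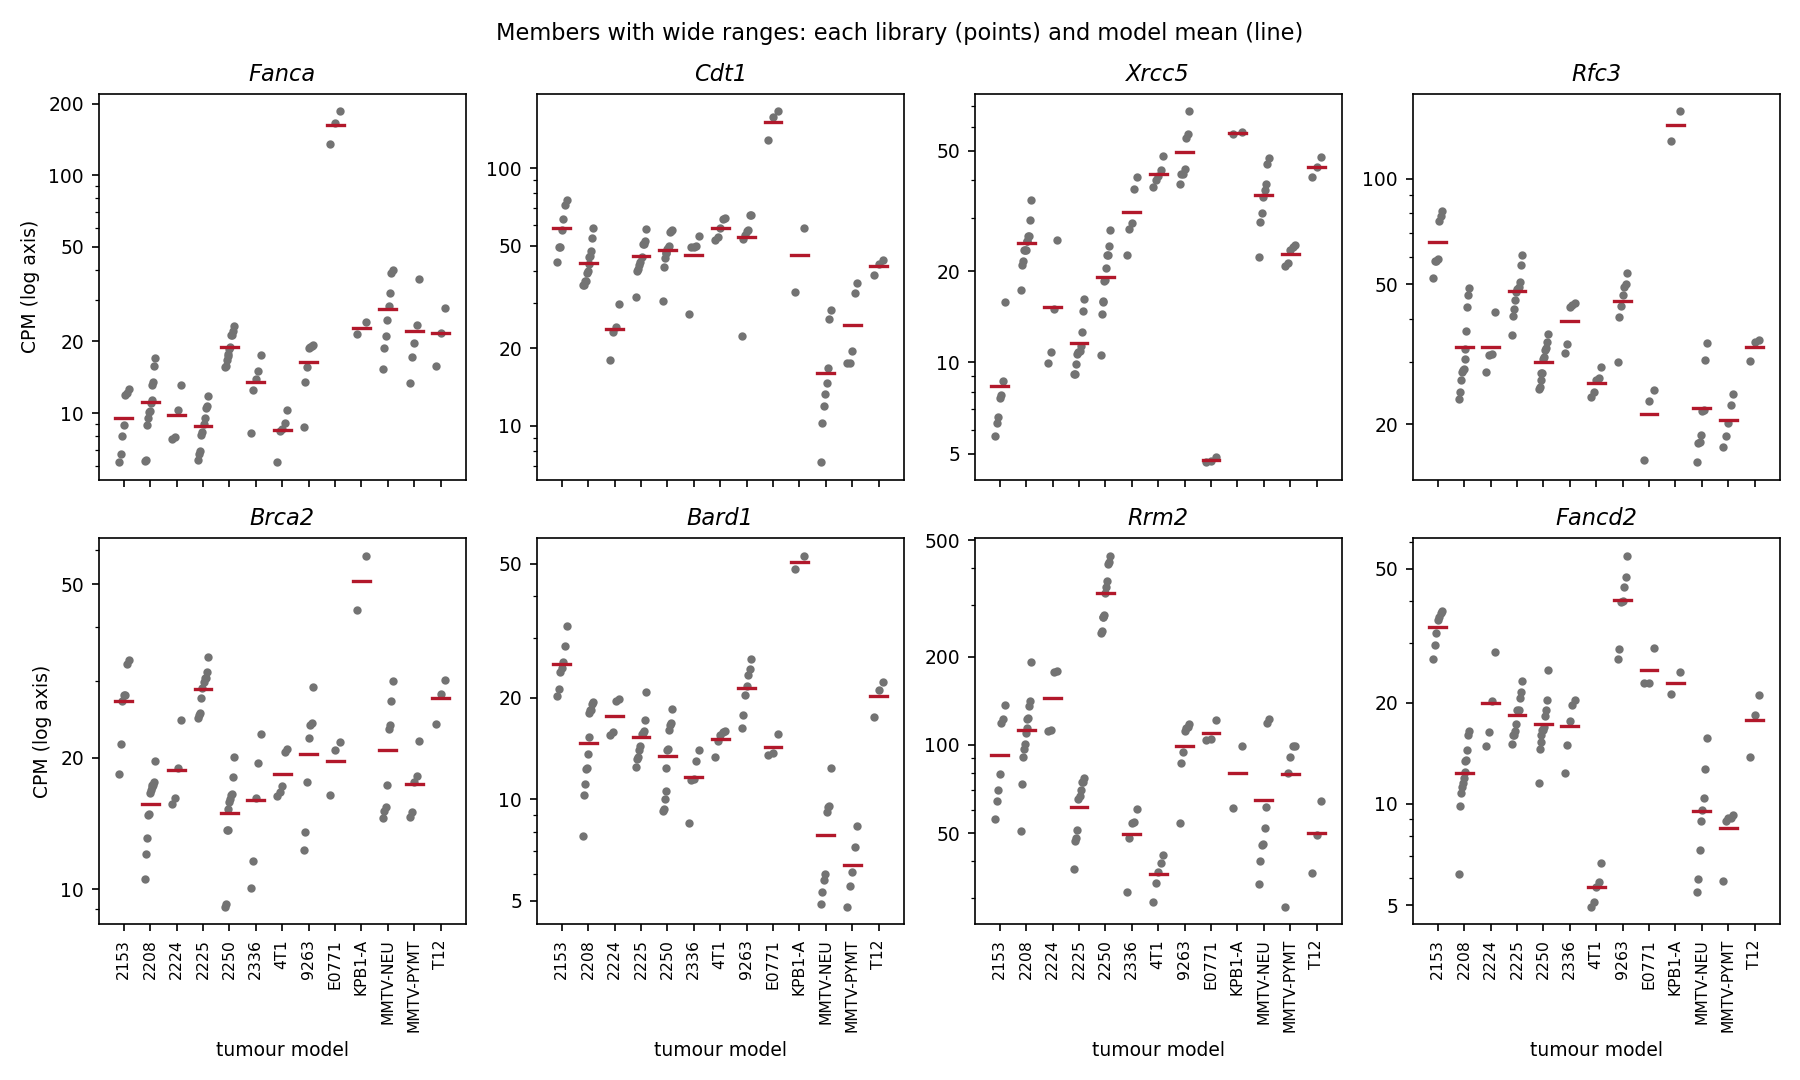
CPM on a log axis (vertical) of 8 members by model (horizontal axis), with each library as a point and the model mean as a line. Fanca and Cdt1 stand above all other models in E0771, Rfc3, Brca2 and Bard1 in KPB1-A and Rrm2 in 2250, and Xrcc5 is lowest in E0771.

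Among checkpoint genes, Chek1, the kinase activated by Atr at stalled forks, had r = 0.81 with the Mcm mean and the others 0.35 (Chek2), 0.35 (Atr), 0.02 (Trp53bp1) and -0.45 (Atm). Chek1 was highest in 9263 (40.6 CPM at the lowest, 48.5 CPM at the median and 58.9 CPM at the highest; 1.02 ± 0.11), with 6 of 7 libraries above every library of another model. Chek2, the kinase activated by Atm at breaks, spanned 4.93-fold, the widest of the group. It was higher in 2336 (33.1, 31.7, 37.0, 40.6 and 48.5 CPM; 0.99 ± 0.10, adjusted p = 3.02e-13, above the other models in 5 of 5 libraries) and 2250 (25.3 CPM at the lowest, 35.3 CPM at the median and 40.4 CPM at the highest; 0.85 ± 0.077, adjusted p = 3.19e-16, above the other models in 11 of 11 libraries). In 4T1 it had 7.52, 6.79, 7.92, 8.59 and 7.87 CPM, all 5 below every other library (10.7 CPM or more; -1.50 ± 0.13, adjusted p = 2.89e-16, below the other models in 5 of 5 libraries). Atm, the kinase of the double-strand break response, was highest in T12 (73.7, 64.0 and 70.8 CPM; 1.07 ± 0.23, adjusted p = 8.92e-05, above the other models in 3 of 3 libraries). It was also higher in the models with the lowest Mcm levels, MMTV-NEU (0.57 ± 0.16) and MMTV-PYMT (49.5, 88.6, 36.3, 29.5 and 43.3 CPM; 0.54 ± 0.20, adjusted p = 0.0181, above the other models in 4 of 5 libraries). The MMTV-PYMT call was lost without replicate 2, in limma and against the other FVB models. In 9263 Atm was lower (11.7 CPM at the lowest, 22.4 CPM at the median and 43.8 CPM at the highest; -0.46 ± 0.19, adjusted p = 0.0303, below the other models in 5 of 7 libraries), a call lost against the other BALB/c models and with T12 and E0771 out of the reference. Atr, the kinase of stalled forks, was lowest in 2250 (12.4 CPM at the lowest, 19.9 CPM at the median and 26.1 CPM at the highest; -1.08 ± 0.12, adjusted p = 8.36e-13, below the other models in 11 of 11 libraries) and highest in T12 (66.8, 57.1 and 63.3 CPM). Within 9263, Atr was 26.1, 18.9 and 18.0 CPM in replicates 2, 3 and 4, the libraries with the most macrophage and fibroblast markers, and 42.5 to 57.6 CPM in the other 4. Replicates 2, 3 and 4 also had the lowest total counts of the model (23.4, 25.4 and 35.4 M, against 42.7 M or more). Trp53bp1, Prkdc, Brca2, Pola1 and Msh6 were lower in those 3 libraries without overlap as well, and Mcm5 and Gins2 higher, a split chosen after its values were seen and not tested. Trp53bp1, which favours end joining at breaks, had 42.8, 36.3 and 42.5 CPM in E0771, below every other library (58.1 CPM or more; -1.17 ± 0.15, adjusted p = 1.15e-10, below the other models in 3 of 3 libraries).

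Xrcc5 (chr1:72307421-72394952), the large Ku subunit, had the next widest range after Fanca, 11.96-fold. It had 4.68, 4.73 and 4.89 CPM in E0771, below every other library (5.7 CPM or more; -2.45 ± 0.25, adjusted p = 4.22e-14, below the other models in 3 of 3 libraries). It was also lower in 2153 (5.7 CPM at the lowest, 7.62 CPM at the median and 15.8 CPM at the highest; -1.57 ± 0.15, adjusted p = 1.17e-14, below the other models in 7 of 7 libraries) and 2225 (9.18 CPM at the lowest, 10.8 CPM at the median and 16.2 CPM at the highest; -1.06 ± 0.12, adjusted p = 8.23e-12, below the other models in 10 of 10 libraries). The highest levels were in KPB1-A (57.4 and 56.6 CPM), 9263 (38.9 CPM at the lowest, 43.4 CPM at the median and 67.5 CPM at the highest; 1.21 ± 0.12, adjusted p = 1.54e-14, above the other models in 7 of 7 libraries), T12 (44.0, 41.0 and 47.8 CPM; 1.04 ± 0.17, adjusted p = 5.53e-07, above the other models in 3 of 3 libraries) and 4T1 (43.0, 47.9, 37.9, 40.0 and 41.3 CPM; 0.95 ± 0.14, adjusted p = 1.64e-08, above the other models in 5 of 5 libraries). In MMTV-NEU it was higher (0.70 ± 0.12, adjusted p = 2.35e-07, above the other models in 8 of 8 libraries), but against KPB1-A and MMTV-PYMT alone the difference was -0.012. Ku is a pair of both subunits, yet Xrcc6 took another order: it was highest in 2250 (93.2 ± 13.9 CPM, n = 11), and in 4T1, where Xrcc5 was higher, all 5 libraries (26.7, 30.4, 25.8, 30.3 and 28.9 CPM) were below every other library. In E0771 Xrcc6 was not called (0.18 ± 0.13). Prkdc (chr16:15637866-15842235), the kinase that Ku recruits, had 41.0 and 41.3 CPM in KPB1-A, above the 34.4 CPM of the highest other library (1.53 ± 0.21), and 3.39 CPM at the lowest, 8.11 CPM at the median and 9.71 CPM at the highest in 2250 (-1.14 ± 0.13, adjusted p = 1.97e-12, below the other models in 11 of 11 libraries).

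Msh6, a mismatch recognition subunit, was higher in 2208 (84.7 CPM at the lowest, 121.0 CPM at the median and 145.0 CPM at the highest; 0.77 ± 0.079, adjusted p = 1.54e-13, above the other models in 12 of 12 libraries), where 10 of 18 repair genes were lower, and in 2336 (123.4, 100.9, 114.2, 107.1 and 130.4 CPM; 0.72 ± 0.11, adjusted p = 1.04e-07, above the other models in 5 of 5 libraries). Parp1, the sensor of single-strand breaks, spanned only 2.1-fold and was highest in 9263 (231.7 ± 46.7 CPM, n = 7) and lowest in 4T1 (110.1 ± 3.53 CPM, n = 5). Polq, the polymerase of microhomology end joining, was lowest in 4T1 (5.41, 5.13, 5.87, 6.84 and 5.52 CPM; -1.31 ± 0.20), as were Brca1, Palb2, Rad54l, Fancd2, Fanca, Chek2 and Xrcc6.

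Brca1 and its group were set against the Mcm genes within each library, as mean log2 CPM and with no test. Over the 13 model means, Brca1 had r = 0.63 (Spearman rho = 0.59) with the Mcm mean and r = 0.78 with the mean of 20 mitosis genes. The 7 recombination and Fanconi genes had r = 0.79 with the Mcm mean. The Mcm mean had r = 0.87 with the mitosis mean (rho = 0.88) and r = 0.11 with the proliferation marker Mki67 (rho = 0.35), itself among the mitosis genes. Mki67 was lowest in E0771 (6.79 log2 CPM), where the Mcm mean was 7.16. Model means share libraries and scaling, and these values describe 13 points. Brca1 minus the Mcm mean was lowest in KPB1-A (-2.95 ± 0.23 log2, n = 2), then in 4T1 (-2.39 ± 0.13, n = 5) and 2336 (-2.27 ± 0.12, n = 5). In the other 10 models it lay between -1.77 (E0771) and -1.42 (T12). KPB1-A combined the highest Mcm mean of the 13 (7.88 log2 CPM) with a Brca1 of 4.93. 4T1 combined the lowest Brca1 (4.22) with an Mcm mean of 6.61, and 2336 had 4.96 and 7.23.

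**Figure D3:**
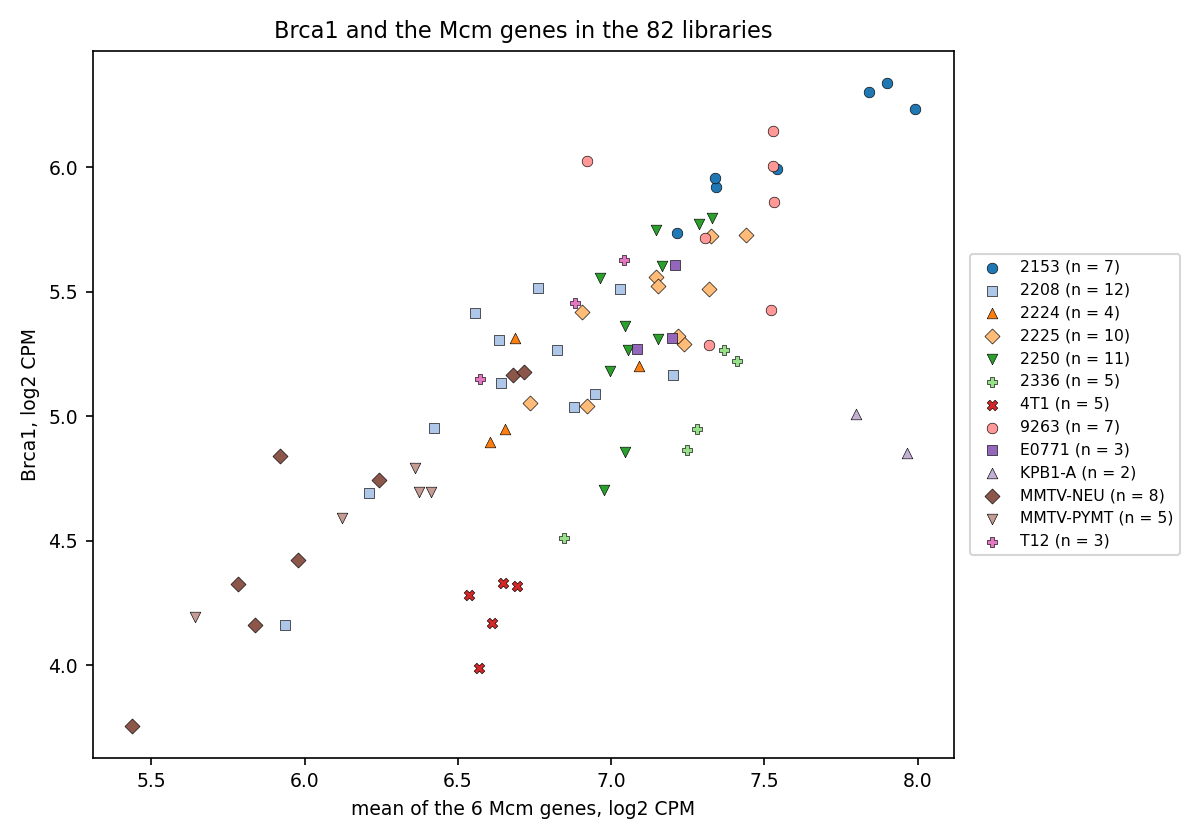
Brca1 (vertical axis, log2 CPM) against the mean of the 6 Mcm genes (horizontal axis, log2 CPM) in the 82 libraries, coloured by model. Most models lie along a common band from MMTV-NEU to 2153, and KPB1-A, 4T1 and 2336 lie below it.

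For the 7 recombination and Fanconi genes together, the difference from the Mcm mean was centred on its average over the 13 models. It was highest in MMTV-NEU (0.47), E0771 (0.44), T12 (0.32) and MMTV-PYMT (0.31), and lowest in 2336 (-0.44), 4T1 (-0.41), KPB1-A (-0.31) and 2153 (-0.30). With a median over genes in place of the mean, 4T1 was at -0.059, 2153 at -0.12, KPB1-A at -0.44, MMTV-PYMT at 0.54, E0771 at 0.22 and T12 at 0.15, so that the order depends on how the genes are averaged. Without Fanca, an alternative chosen after its level was seen, the value of E0771 was 0.0078, so that it rested on that gene. MMTV-NEU and MMTV-PYMT had the lowest Mcm means (6.07 and 6.18 log2 CPM). Of the 20 mitosis genes, 19 were lower in 4T1, 18 in MMTV-NEU and 17 in MMTV-PYMT (23.6%, 28.4% and 20.5% of all genes). In 2153 and in 2225, 15 were higher (29.4% and 34.2%), though in 2225 2 Mcm genes were higher and 1 lower. KPB1-A, with the highest Mcm mean, had 6 mitosis genes higher (24.9%). E0771 had 11 higher (29.4%), with 1 Mcm gene higher. The Mcm mean minus the mitosis mean was highest in 4T1 (1.03 ± 0.23 log2, n = 5) and KPB1-A (1.02 ± 0.0004, n = 2) and lowest in 2224 (0.13 ± 0.18, n = 4). The part of the share of dividing cells in these differences was not tested.

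**Figure D4:**
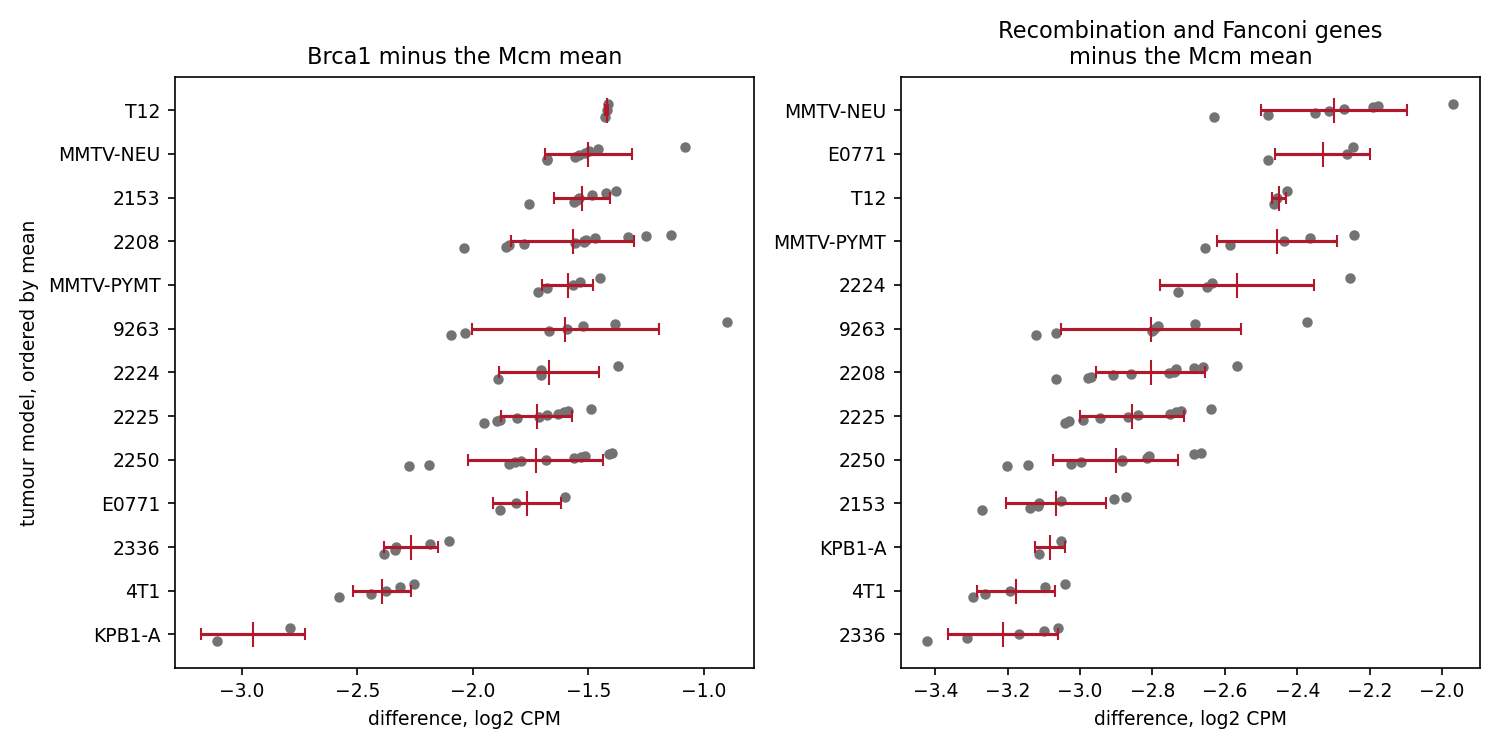
Brca1 and the mean of the 7 recombination and Fanconi genes, each minus the mean of the 6 Mcm genes in log2 CPM, by library (points) and model (ordered by mean; red, mean ± SD). KPB1-A is lowest for Brca1 (-2.95), and MMTV-NEU and E0771 are highest for the group (-2.30 and -2.33).

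Members at least 1.5 log2 units from the other models were read beside all tested genes within 1 Mb, with positions from GENCODE M21 on GRCm38. In E0771, 38 of 58 neighbours of Fanca were called higher and 2 lower, where 29.4% of all genes were higher and 26.9% lower. The neighbours had a median difference of 0.99 where the median of all genes was -0.11. Among them were Tubb3 (5.28), Spire2 (3.70) and Cpne7 (3.52). Cdt1 lies 0.69 Mb from Fanca on chromosome 8, so that their windows share genes and each holds the other member. Of the 58 neighbours of Cdt1, 33 were higher and 3 lower (median 0.79). Gins2, 1.98 Mb from Cdt1, was also highest in E0771. In KPB1-A, where 24.9% of all genes were higher and 14.4% lower, 7 of 8 neighbours of Rfc3 were higher (median 2.19). Among them were Stard13 (2.5) and Pds5b (1.52), and Brca2 lies 1.07 Mb from Rfc3. Around Pole 29 of 46 were higher and 1 lower (median 0.92), and around Prkdc 9 of 13 were higher and 0 lower (median 0.77), among them Mcm4. Mcm4 and Prkdc lie head to head, 466 bases apart on chromosome 16, and had r = 0.29 over the 13 models, while Rfc3 and Brca2 had r = 0.79.

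Around Bard1 in KPB1-A, 1 of 9 neighbours was higher (median -0.027). Around Rrm2 in 2250, 5 of 11 were higher and 1 lower (median 0.17), with Grhl1 at 2.76. Around Cdt1 in MMTV-NEU, 12 of 58 were lower and 23 higher (median 0.18), and around Pold1 33 of 92 were lower and 28 higher (median -0.23). In 4T1, 21 of 48 neighbours of Fancd2 were lower and 2 higher (median -0.41), and 13 of 44 of Chek2 were lower and 3 higher (median -0.31), where the median of all genes was -0.08. Around Xrcc5, 5 of 24 were lower and 1 higher in E0771 (median -1.02), with Igfbp2 at -4.51 and Igfbp5 at -4.47, and 6 of 24 were lower and 6 higher in 2153 (median -0.17). Of all genes, the shares called higher and lower were 24.9% and 14.4% in KPB1-A and 32.1% and 27.7% in 2250. They were 34% and 28.4% in MMTV-NEU and 25.5% and 23.6% in 4T1. In E0771 they were 29.4% and 26.9%, and in 2153 29.4% and 23.6%. The part of DNA copy number in the neighbours' values was not tested.

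**Figure D5:**
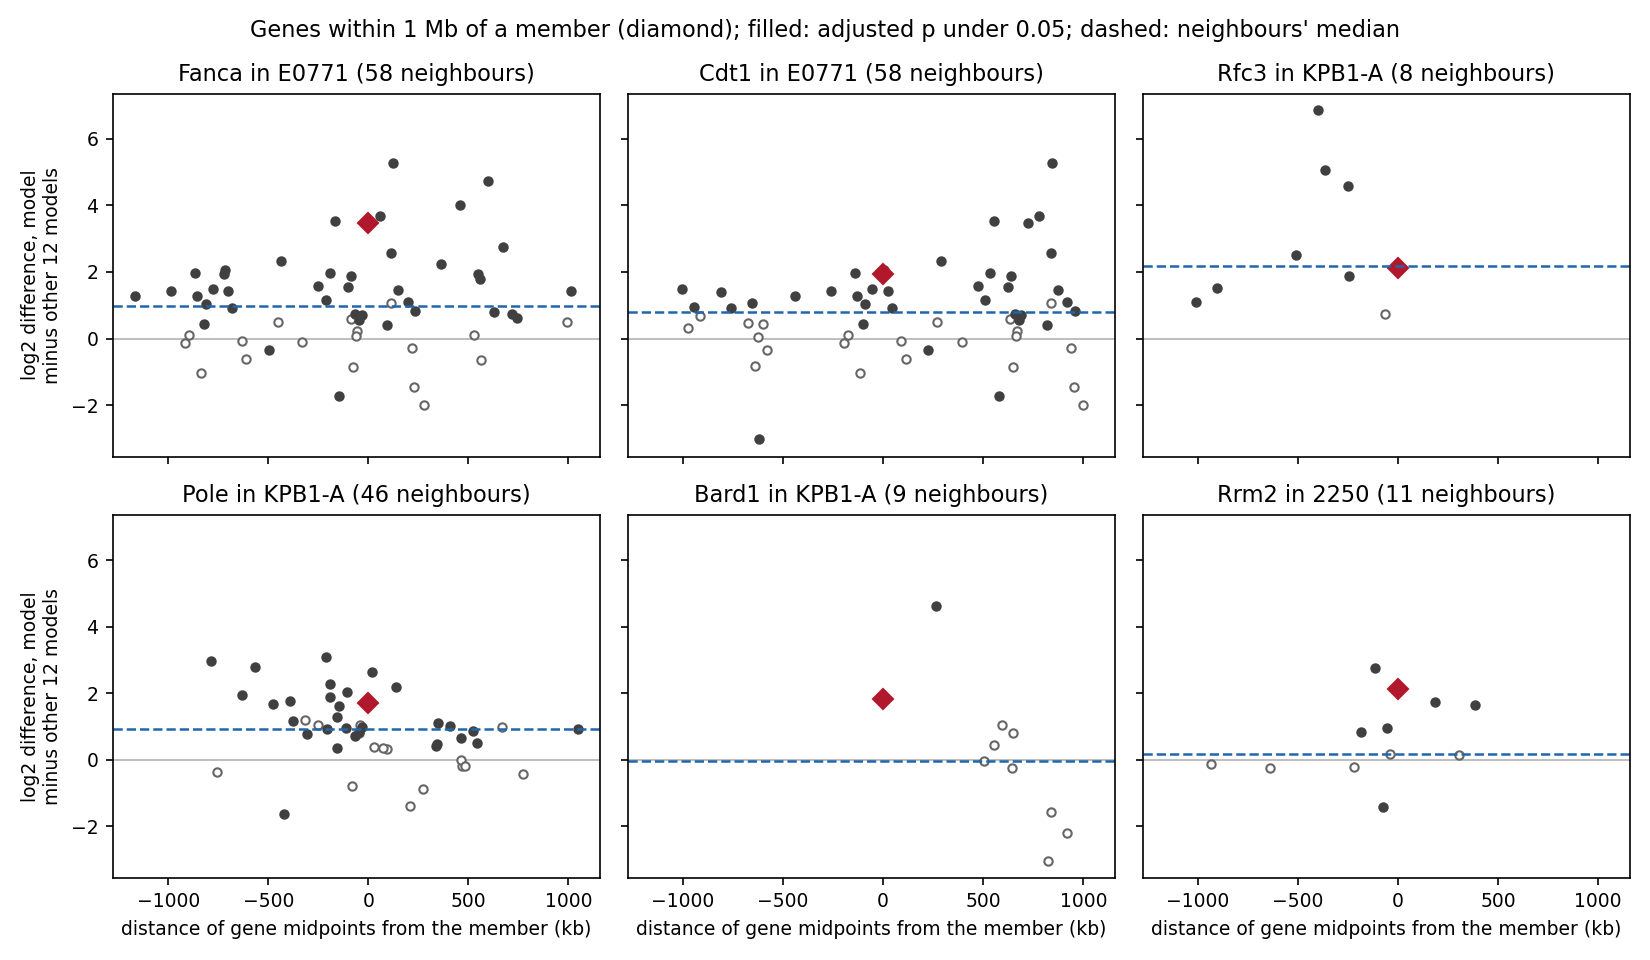
Log2 difference (vertical axis) of genes within 1 Mb of a member against distance of midpoints in kilobases (horizontal axis), for 6 pairs of member and model; the diamond is the member, filled points have an adjusted p under 0.05 and the dashed line is the neighbours' median. The median is 2.19 around Rfc3 and 0.99 around Fanca but -0.027 around Bard1.

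Genes of the same pathways that are not members were counted in the same way. Their counts are to be read beside the shares of all genes called in each model, given above with the members. Of 42 other replication genes, 25 were higher and 2 lower in 2153, while 34 were lower in MMTV-NEU, 32 in MMTV-PYMT and 31 in 4T1. In 2224, 12 were higher and 8 lower, against 2 and 4 of the replication members. Gins4, a further GINS subunit, had the largest increase, in 2336 (3.63 ± 0.084, adjusted p = 1.55e-50), and the helicase gene Recql4 the largest decrease, in 4T1 (-1.89 ± 0.19, adjusted p = 6.26e-14). Of 28 other recombination and Fanconi genes, 20 were higher and 1 lower in 9263 and in KPB1-A, and 1 was higher and 19 lower in 4T1. In 2250, 5 were higher and 13 lower, against 2 and 2 of the 7 members. Fancl, the ubiquitin ligase for Fancd2, had the largest increase, in KPB1-A (1.88 ± 0.22, adjusted p = 2.17e-11), and the nuclease gene Exo1 the largest decrease, in 4T1 (-1.61 ± 0.18, adjusted p = 1.61e-12). Of 16 other repair genes, 9 were higher in 2336 (30.2% of all genes) and 9 lower in 2208 and in 4T1 (24.7% and 23.6%). In MMTV-NEU, where 34% of all genes were higher and 28.4% lower, 5 of these repair genes were higher and 6 lower. Their extremes were Nhej1, an end-joining factor, in 2225 (2.54 ± 0.10) and the histone gene H2afx in MMTV-NEU (-1.58 ± 0.20). Of the mitosis genes, the kinesin gene Kif11 was highest against the rest in 2153 (1.55 ± 0.11) and Mki67 lowest in E0771 (-2.07 ± 0.28). Of 13 G1/S regulators, 12 were lower in MMTV-NEU, 11 in 4T1, and 10 were higher in 2336, led by the E2F partner Tfdp1 (1.86 ± 0.081). Rb1, which restrains E2F, had their largest decrease, in 2225 (-1.78 ± 0.17).

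Among 12084 other genes with a mean of at least 5 CPM, those most like the Mcm mean over the 13 model means were BC055324 (r = 0.97), Dscc1 (0.96), Fastkd3, Gmnn (0.95), Nuf2, Cdk1, Rqcd1, Kif20a, Emg1 and Nop58 (0.92). Among the 10 most like Brca1 were Ccnb1 (r = 0.87), Ankrd26, Sap30, Dnttip2, Tatdn2, Ncapg, Cdca5 and Brpf1 (0.84). These are the highest of many correlations over 13 points, given as a description.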

How the data were processed

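Messenger RNA of 82 tumours was sequenced with TruSeq mRNA libraries, per the labels' protocols. The authors deposited estimated counts per gene (85.5% whole, 52.7% at 0), and a normalized table, here unit signal, in which the deposited values scale with each library's upper quartile. STAR, SAMtools, Picard, Salmon and mm10 are named in the submitters' processing notes, with no versions, and strand is not given in the sources used here. Counts were rounded and 22847 of 47480 genes kept (filterByExpr by model, minimum count 10, minimum total 15). edgeR 4.0.16 in R 4.3.3 fitted 1 mean per model with TMM factors and robust quasi-likelihood (69 residual degrees of freedom), and was checked on simulated data. An F test compared the 13 models, and each model was tested against the mean of the other 12. Scores used log2 CPM with a prior count of 2. Alternatives were DESeq2 1.42.0, limma 3.58.1 on the authors' table, other scalings, no filter, other references, and leaving out single libraries. Named genes were, per model, up to 2 members with the largest called increase and decrease, the widest member per role, Brca1 and the Mcm genes, the extremes of each other list, and the 10 genes most like Brca1 and like the Mcm mean, of which 2 are not reported here. The members and lists were chosen with earlier results of these data known. RefSeq promoters were those of GRCm38.p6.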

Additional observations from a re-analysis of the deposited data

Results flagged for a closer look

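In 128 groups of 4 to 10 libraries tested, 11 values stood apart from the rest of their model by Dixon's test, which chance does in about 1 in 20 groups. In 2336, replicate 4 had a mean of 5.53 log2 CPM over the replication genes (the others 5.97 to 6.10), with Mcm5 at 87.8 CPM (the others 133.1 to 149.9) and Cdt1 at 27.2 CPM (49.5 to 54.4). It also had the highest summed macrophage (510 CPM), endothelial (289 CPM) and T cell markers (8.48 CPM) of its model, and also the highest epithelial markers (1677 CPM, the others 1114 to 1439 CPM), and their part was not tested. Replicate 5 of 2336 had Mcm2 at 233 CPM (154 to 160.4). In MMTV-PYMT, replicate 4 had a replication mean of 4.55 log2 CPM (5.19 to 5.34), Mcm7 at 58.4 CPM (81.2 to 89.7) and Rrm2 at 28.0 CPM (80.3 to 99.3). In 9263, replicate 1 had Mcm2 at 142 CPM (208 to 249) and Cdt1 at 22.2 CPM (53.2 to 66.0). In 2224, replicate 2 had Mcm3 at 130.0 CPM (92.4 to 97.8), and in 2153, replicate 1 had Xrcc5 at 15.8 CPM (5.70 to 8.66).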

How the results depend on the processing

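Of the 287 calls of members, 85.7% (same-strain reference, 233 of 272 that could be compared) to 99.7% (without 2153 replicate 1) were kept in the same direction under each alternative run, and 0 were called in the opposite direction. The number called in KPB1-A was 19, but 31 against the same strain, and 12 to 19 with single libraries left out. It was 9 to 15 in 2224 and 7 to 14 in T12 with single libraries left out. Over all genes, the share of calls that were higher moved from 60.2% to 44.0% in MMTV-PYMT, 59.7% to 47.3% in 9263, 54.5% to 43.3% in MMTV-NEU and 53.7% to 42.7% in 2250 with limma on the authors' table, and the median of all genes in KPB1-A moved from 0.06 to -0.13 without the filter. With a median over genes, the recombination level relative to the Mcm level was -0.12 in 2153, -0.059 in 4T1, 0.22 in E0771, -0.44 in KPB1-A, 0.54 in MMTV-PYMT and 0.15 in T12. Without Fanca, chosen after seeing the data, it was -0.093 in 2153, 0.092 in 2225, 0.0078 in E0771 and 0.30 in T12. Xrcc5 in MMTV-NEU was -0.012 against the same strain. In 47 pairs of a named gene's difference and an alternative, a call was lost, and the cause was not tested. No paired analysis was possible because the labels pair no libraries across models. Totals of 14.4 M counts or more left every member above the filter.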
